A study of Solanum lycopersicum with 18 samples.

Results

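Red-ripe wild-type tomato pericarp was compared with immature green wild-type pericarp, the 2 ends of the ripening course. The comparison used 6 of the 18 Affymetrix tomato arrays of the series, chosen by the labels alone. Ages are given as DAP, the abbreviation in the labels for age in days. Of the 6 arrays, 3 were of wild-type fruit labelled red-ripe at 45 DAP and 3 of wild-type fruit labelled immature green at 35 DAP. All were of the variety Pusa Ruby, and pericarp is the fleshy wall of the fruit. The other 12 arrays held wild-type breaker fruit at 40 DAP and fruit of the ripening-inhibitor mutant rin at 35, 40 and 45 DAP, and they entered the model only to share its estimate of the spread and to test whether the change with age differed in rin. The titles give the 3 arrays of each group to plants 1, 2 and 3, as separate biological replicates. A second code in the titles recurs between ages under other plant numbers, so whether 1 plant was sampled at several ages could not be settled. The growth and treatment notes in the labels describe seedlings and shoots, so the tissue and age were read from each sample's own title and characteristics.

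Tomato is a climacteric fruit: ripening begins with a burst of ethylene made through ACC synthase and ACC oxidase, and ethylene receptors and EIN3-like factors pass the signal on. The MADS-box factor RIN and the NAC factor NOR act upstream of much of this programme. As the fruit ripens, chloroplasts become chromoplasts, chlorophyll is lost, lycopene accumulates through phytoene synthase, cell walls are loosened and cut, and starch gives way to sugars and volatile compounds.

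Between red-ripe and green pericarp, 3285 of 7720 tested probe sets were called, which was 42.6% at a Benjamini-Hochberg adjusted p under 0.05 in limma. Of these, 1824 (23.6%) were higher and 1461 (18.9%) were lower at 45 DAP. In 4671 probe sets (60.5%) the 3 signals at 45 DAP did not overlap the 3 at 35 DAP, with 2736 (35.4%) higher and 1935 (25.1%) lower. More probe sets rose than fell, but the large changes were mostly decreases. Among called probe sets, 373 rose and 773 fell by at least 4-fold, and 83 rose and 276 fell by at least 16-fold. With each signal below its own array's 30th percentile raised to that percentile, the counts were 335 and 702 for 4-fold and 68 and 225 for 16-fold. The median log2 difference, 45 DAP minus 35 DAP, was 1.28 over the called increases and -2.14 over the called decreases, against 0.16 over all tested probe sets. A gene symbol was available for 909 of 10101 probe sets, so the genes named here are a small part of the array. Taking the brightest probe set for each gene, 635 named genes were tested, of which 142 (22.4%) rose and 165 (26.0%) fell. Counts for the gene lists below are to be read beside these shares. In 41 genes with several tested probe sets, 0 had probe sets called in opposite directions by limma, also at an unadjusted p under 0.05.

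**Figure D1:**
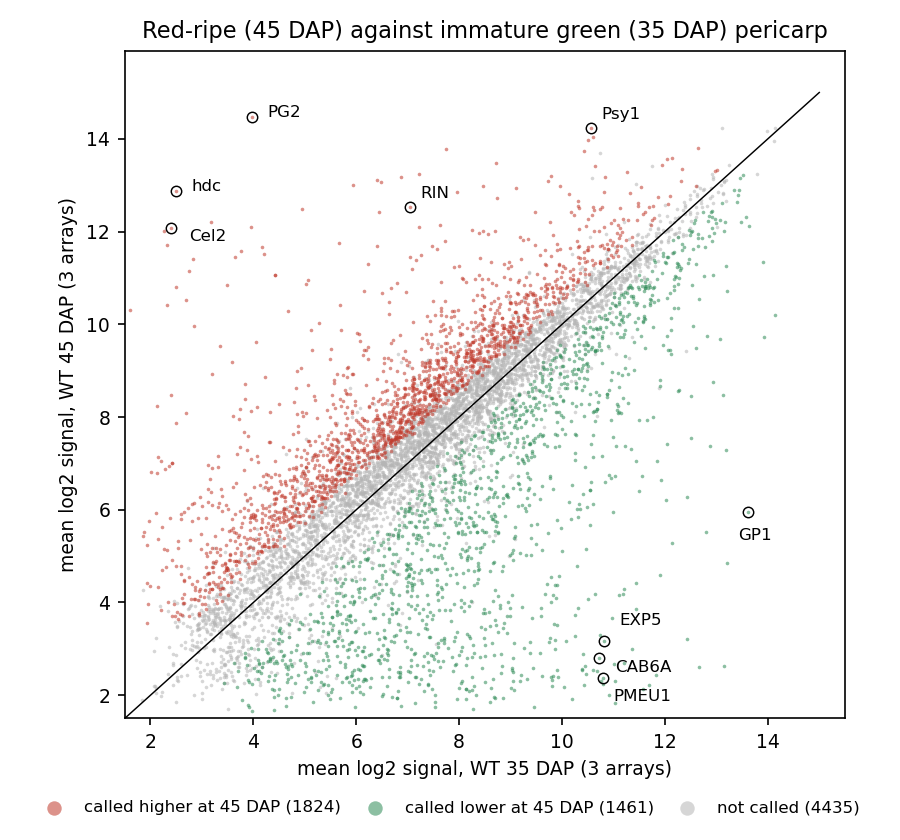
Mean log2 signal of each of the 7720 tested probe sets at 45 DAP (vertical axis) and 35 DAP (horizontal axis), 3 arrays each, with 1824 called higher, 1461 called lower and 4435 not called. Points far from the line of equal signal are more numerous below it than above it, and some named genes are circled.

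The arrays of a group resembled each other more than they resembled the other age. Correlations of log2 signal between replicates were 0.95 to 0.98 at 45 DAP and 0.92 to 0.97 at 35 DAP, against 0.69 to 0.76 between the ages, and the first principal component of the 6 arrays held 81.5% of the variance and separated the ages. Replicate 2 at 35 DAP lay at -47.6 on the second component, against 16.6 and 32.5 for the other green arrays. Replicate 3 at 45 DAP was the ripe array nearest to the green mean in 48.9% of called probe sets, against 19.9% and 31.2% for replicates 1 and 2. The arrays had been brought to a common level, with trimmed means of 346.5 to 346.8 at 45 DAP and 339.2 to 343.1 at 35 DAP. The ratio of 3' to 5' signal, a sign of RNA quality, overlapped between the ages for actin, GAPDH, ubiquitin and EF1a and did not overlap for 2 of the 6 control genes, named GlutTrans and PhyB2, whose part in the results was not tested. A signal at or below its own array's 30th percentile is called dim here, and that percentile was 11.3 to 11.8 at 45 DAP and 14.8 to 15.4 at 35 DAP. Where a gene was called and its dimmer group held a dim array, the change is given as "at least" a fold, computed with dim signals raised to that percentile, and such a bound can rest on this floor. A log2 difference beside such a bound, like that of a gene not called, is of the signals as deposited.

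Markers of the labelled stages followed the labels for the most part, with exceptions. The summed signal of 10 photosynthesis genes was 12900 to 16190 at 45 DAP and 16600 to 21470 at 35 DAP. Of these genes 5 were called lower at 45 DAP, 1 was called higher and 4 were not called. The ripening markers RIN, NOR, PG2 (polygalacturonase), Psy1 and ACS2 were bright on all ripe arrays and called higher. E8 lay higher without a call, and the call of EXP1 was lost in some fits that left out 1 array. Some markers of other tissues were dim. The seed mannanase MAN2 was dim on all 6 arrays, and 6 of 9 leaf and root markers were dim on all arrays of both ages. The summed signal of the 9 was 1789 to 2136 at 45 DAP and 1592 to 2070 at 35 DAP. The summed signal of the 2 pollen and stamen markers was 1234 to 1355 at 45 DAP and 1513 to 2258 at 35 DAP. Neither was dim on all 3 arrays of either age, and TDR6, counted here, is also counted among the ripening regulators below. For the 2 placenta and locule markers the summed signal was 9.48 to 12.8 at 45 DAP and 66.2 to 226 at 35 DAP. The ovule MADS-box gene AGL11 was dim on all 3 ripe arrays and had signals of 62.2, 222 and 65.6 at 35 DAP, a decrease of at least 8.42-fold, or 5.56-fold without replicate 2 at 35 DAP. The part of placenta or ovule tissue in the green samples was not tested. In whole pericarp RNA, fewer cells of a type and less RNA per cell cannot be told apart.

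Among 10 ripening regulators measured, 4 rose, 3 fell and 3 were not called, with a median log2 difference of 0.66. RIN had signals of 6929, 5527 and 5434 at 45 DAP, against 158.5, 62.5 and 236 at 35 DAP. Every ripe array lay far above every green one, and the log2 difference was 5.48 ± 0.37 (SE, adjusted p = 6.96e-08). NOR had signals of 2203, 1722 and 1453 at 45 DAP, against 75.8, 108 and 129 at 35 DAP, a log2 difference of 4.11 ± 0.98. TDR4, the FRUITFULL-like MADS-box gene also known as FUL1, had 11240, 8518 and 7014 at 45 DAP, against 434, 1048 and 1362 at 35 DAP, a log2 difference of 3.36 ± 0.68. No ripe array of either gene overlapped a green one. NAC1, a NAC-domain gene, was called higher by at least 3.24-fold, but the call was lost without replicate 1 or 2 at 45 DAP or replicate 2 or 3 at 35 DAP (adjusted p of 0.0725 to 0.12).

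Other MADS-box genes went down or did not pass the test. MADS1 had signals of 170, 195 and 184 at 45 DAP, against 1247, 396 and 683 at 35 DAP, and the log2 difference was -1.93 ± 0.36. TDR6 had 180, 103 and 267 at 45 DAP, against 1012, 714 and 711 at 35 DAP, a log2 difference of -2.23 ± 0.39. The SEPALLATA-like gene TM5 (LOC543885) fell by 0.79 ± 0.15 on the log2 scale, the smallest of the called changes in the list. All 3 sets of ripe arrays lay below their green arrays with no overlap. The 2 AGAMOUS-type genes were not called: AG1 differed by 0.95 ± 0.49 (adjusted p = 0.133) and TAGL1 by 0.37 ± 0.29 (adjusted p = 0.322), with TAGL1 arrays overlapping. TDR8 was dim on all 6 arrays.

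Within the ACC synthase family of ethylene synthesis, 2 members rose and 1 fell. Of 14 genes of the list on the array, 10 passed the filter on dim signals, of which 2 rose, 3 fell and 5 were not called. ACS2, an ACC synthase of ripening fruit, had signals of 5245, 5031 and 2696 at 45 DAP, against 4.55, 5.32 and 4.54 at 35 DAP. It was dim on all green arrays, so the increase was at least 272-fold (log2 difference 9.76 ± 0.89, adjusted p = 1.02e-06). ACS4 had 4588, 3685 and 4990 at 45 DAP, against 14.7, 6.40 and 39.3 at 35 DAP, an increase of at least 208.5-fold. ACS6, the ACC synthase known from green fruit, went the other way, with 6.15, 21.4 and 9.64 at 45 DAP, against 296, 64.7 and 240 at 35 DAP. Its decrease was at least 11.7-fold, and 18.8-fold without replicate 2 at 35 DAP. ACS1A was not called, with overlapping arrays and a log2 difference of 1.35 ± 1.29.

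ACC oxidase makes ethylene from ACC, and none of its brightest probe sets per gene passed the test. ACO4 had signals of 1148, 1030 and 1666 at 45 DAP, against 1652, 2370 and 1139 at 35 DAP, and the arrays overlapped (adjusted p = 0.516). ACO6 was not called at -1.38 ± 0.57 (adjusted p = 0.0617), and was called lower without replicate 3 at 45 DAP (0.0438) or replicate 2 at 35 DAP (0.0483). The 2 other probe sets of ACO6 were called lower, at -1.67 ± 0.61 and -2.14 ± 0.65. ACO5 was dim on all 6 arrays. E8, an oxygenase-like ripening marker, had 7793, 6998 and 10700 at 45 DAP, against 2272, 2324 and 4055 at 35 DAP. Its arrays did not overlap, but the log2 difference of 1.59 ± 0.90 missed the threshold (adjusted p = 0.168 in limma). That SE comes from the spread of all 6 groups, and in rin at 35 DAP the E8 signals were 1801, 60.4 and 1644. A fit of only the 6 arrays compared was run, but its value for E8 is not given here. That fit also left out the breaker arrays, so the part of the rin spread alone was not tested. The synthetases of S-adenosylmethionine, the precursor of ACC, fell. SAM1 had 2496, 3043 and 1965 at 45 DAP, against 9285, 8838 and 9724 at 35 DAP, and SAM3 had 797, 676 and 699 against 6869, 5469 and 6343. The log2 differences were -1.91 ± 0.21 for SAM1 and -3.10 ± 0.41 for SAM3.

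Of 33 tested genes of ethylene perception and response, 12 rose, 5 fell and 16 were not called, with a median log2 difference of 0.63. In all 6 fits that left out 1 array, 6 of the 12 increases and 3 of the 5 decreases stayed called. The receptor ETR3 (LOC544279), the product of the Never-ripe locus, had signals of 4807, 4411 and 3466 at 45 DAP, against 350, 217 and 372 at 35 DAP. The log2 difference was 3.78 ± 0.46 (adjusted p = 1.66e-05). The receptor ETR4 had 7921, 8638 and 5496 at 45 DAP, against 1043, 874 and 1530 at 35 DAP, a log2 difference of 2.69 ± 0.60. The receptor genes ETR2, ETR5 and ETR6 were not called, at log2 differences of -0.56 ± 0.84, 0.57 ± 0.78 and 1.45 ± 1.01. CTR1, the kinase that receptors use to hold the pathway off, had 178, 176 and 171 at 45 DAP, against 41.6, 45.0 and 67.3 at 35 DAP, a log2 difference of 1.80 ± 0.47.

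Changes of the other genes of the list went both ways, and several calls were lost in fits that left out 1 array. Of the EIN3-like factors EIL1 and EIL3 were not called, at -0.44 ± 0.21 and 0.61 ± 0.37. Called increases of ETR1 (0.69 ± 0.26), TCTR2 (0.63 ± 0.20), EIL4 (0.89 ± 0.34), ERF2 (2.73 ± 0.91) and PTI4 (2.60 ± 0.89) were each lost in at least 3 of the 6 fits that left out 1 array. The highest adjusted p was 0.134 for ETR1 without replicate 2 at 45 DAP and 0.0962 for ERF2 without replicate 3 at 45 DAP, and 0.0589 for TCTR2, 0.184 for EIL4 and 0.0782 for PTI4 without replicate 2 at 35 DAP. EIL2, at -0.64 ± 0.21, was lost without replicate 1 or 2 at 35 DAP (0.0768 and 0.0814). ER1, a gene named for its response to ethylene, kept its call in all 6 of these fits. It had 908, 1571 and 2204 at 45 DAP and was dim on all green arrays, an increase of at least 96.3-fold.

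The ethylene-response genes PTI6, ER5, ER43 and ER69 fell. The ERF-type factor PTI6 had signals of 11.2, 7.87 and 8.60 at 45 DAP, against 665, 51.9 and 266 at 35 DAP. The green arrays spread over a wide range, and the decrease of at least 18.2-fold became 10.2-fold without replicate 1 and 36.6-fold without replicate 2 at 35 DAP. ER5, which encodes a late-embryogenesis-like protein, had 4.55, 5.08 and 4.59 at 45 DAP, against 418, 45.3 and 251 at 35 DAP. Its decrease of at least 14.6-fold became 9.28-fold, with the call lost (adjusted p = 0.0522), without replicate 1, and 28.2-fold without replicate 2 at 35 DAP. ER43 and ER69 fell by 1.41 ± 0.27 and 1.32 ± 0.25 on the log2 scale.

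**Figure D2:**
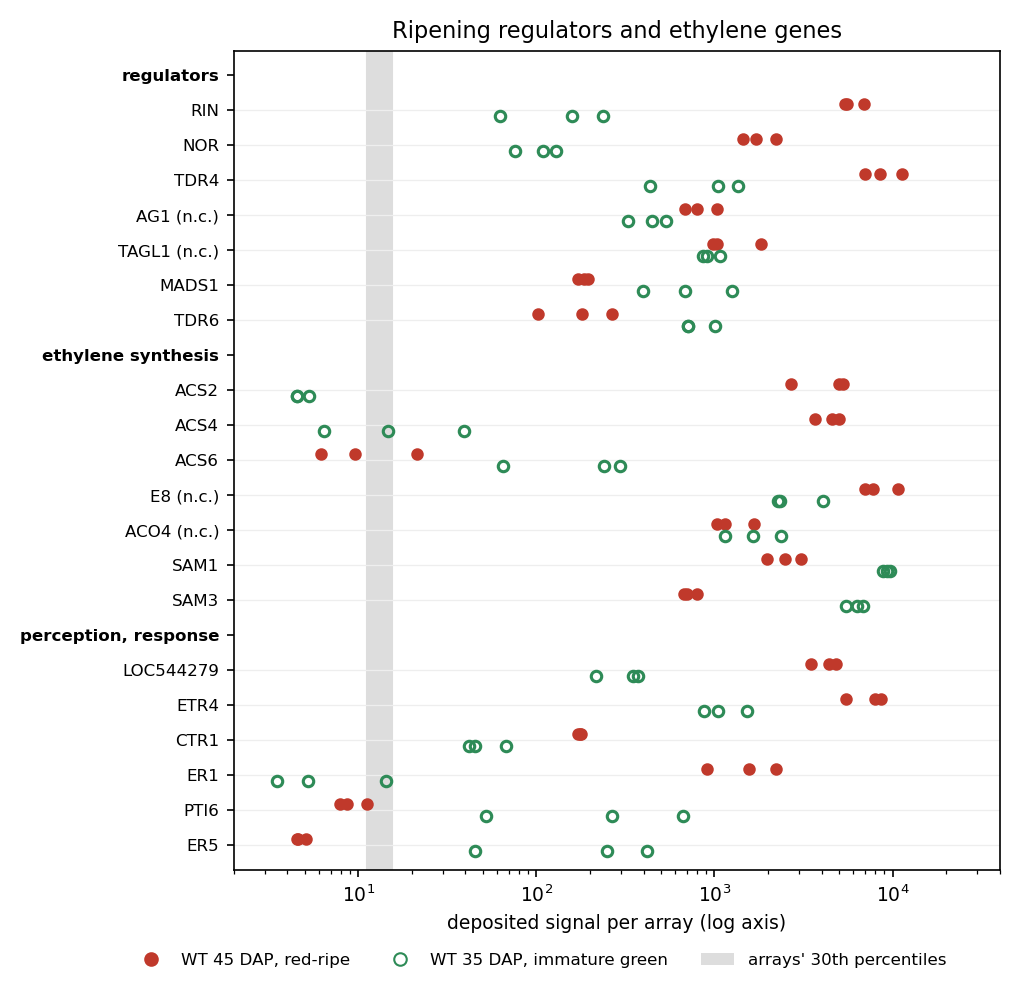
Deposited signal of each array on a log axis for ripening regulators and ethylene genes, with filled points for the 3 arrays at 45 DAP and open points for the 3 at 35 DAP; n.c. marks genes not called, and the grey band spans the arrays' 30th percentiles of 11.3 to 15.4. ACS2 and ACS4 lie above 2000 on every ripe array and below 50 on every green array, and the ripe arrays of ACS6 lie below its green arrays.

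All 20 genes of the carotenoid list passed the filter, and 8 rose, 3 fell and 9 were not called, with a median log2 difference of 0.33. Every called increase but that of CrtR-b1 was of an enzyme on the plastid route up to lycopene or of PTOX. Psy1, the phytoene synthase of fruit, had signals of 20610, 18370 and 18910 at 45 DAP, against 1527, 970 and 2351 at 35 DAP, a log2 difference of 3.67 ± 0.38 (adjusted p = 4.03e-06). Its leaf counterpart PSY2 was not called, at 0.24 ± 0.36. The plastid route to isoprenoid precursors rose at the entry enzyme DXS (2.53 ± 0.34), at ISPE (2.64 ± 0.47) and at HDS (1.12 ± 0.22). DXS had 1735, 2246 and 2098 at 45 DAP, against 391, 289 and 378 at 35 DAP, and DXR, the step after it, was not called at 0.33 ± 0.33. These 3 called genes did not overlap between ages.

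The desaturases after Psy1 rose as well. ZDS, zeta-carotene desaturase, had 1639, 1672 and 1886 at 45 DAP, against 351, 256 and 462 at 35 DAP, a log2 difference of 2.32 ± 0.20. PDS, phytoene desaturase, differed by 1.63 ± 0.30, and PTOX, the plastid terminal oxidase that accepts electrons from desaturation, by 2.78 ± 0.28. Lycopene cyclases fell or were not called. LCY1, a lycopene beta-cyclase, had 48.3, 63.7 and 28.8 at 45 DAP, against 427, 123 and 398 at 35 DAP, a log2 difference of -2.63 ± 0.71. The epsilon-cyclase CRTL-E-1 was dim on all ripe arrays and on 2 of 3 green arrays, and NSY, whose synonyms include the chromoplast cyclase Cyc-B, was not called at 0.15 ± 0.47. The beta-carotene hydroxylase CrtR-b1 rose by 0.84 ± 0.28, but the call was lost without replicate 1 or 2 at 45 DAP or 1 or 3 at 35 DAP (adjusted p of 0.0542 to 0.0969). Outside the plastid, HMGR of the mevalonate route fell by 2.03 ± 0.46 on the log2 scale. FPPS1, farnesyl diphosphate synthase, fell by 1.11 ± 0.37, a call lost without replicate 1 or 2 at 45 DAP or replicate 2 at 35 DAP (0.0697 to 0.101).

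Chlorophyll-binding and several photosystem genes were far lower in red fruit. Of 10 genes of photosynthesis and chlorophyll, 5 fell, 1 rose and 4 were not called, with a median log2 difference of -1.49. CAB6A, which encodes a chlorophyll-binding protein of photosystem I, had 4.60, 7.21 and 10.1 at 45 DAP, against 1892, 1127 and 2269 at 35 DAP. It was dim on every ripe array, so the decrease was at least 147-fold. PsbQ, an oxygen-evolving complex protein, had 56.7, 100 and 191 at 45 DAP, against 1885, 2104 and 1941 at 35 DAP, a log2 difference of -4.27 ± 0.48. The photosystem I subunit psaD (LOC543978) fell by 2.65 ± 0.43 on the log2 scale. CAB5 fell by at least 6.76-fold, or 13.5-fold without replicate 2 at 35 DAP. CAB4 fell by 3.08 ± 1.16, but replicate 2 at 35 DAP (284) stood below 1372 and 1668. Without it the log2 difference was -3.88, and the call was lost in each fit that left out any other of the 6 arrays (adjusted p of 0.076 to 0.136).

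Genes of other oxygen-evolving proteins were bright at both ages. PSBO had signals of 1237, 2223 and 2225 at 45 DAP, against 2312, 2118 and 2240 at 35 DAP, and PSBP had 2230, 3622 and 2836 against 3850, 3116 and 3741. PSBR differed by 0.21 ± 0.17 on the log2 scale, and the arrays of PSBO, PSBP and PSBR overlapped between ages. PETE, plastocyanin, was called higher, with 1717, 1940 and 1648 at 45 DAP, against 752, 889 and 1070 at 35 DAP (log2 difference 0.98 ± 0.26, adjusted p = 0.00787). Among 9 tested genes of light perception and signalling, 3 rose and 1 fell. The blue-light receptor gene Cry1b fell by at least 26-fold, or 42.3-fold without replicate 2 at 45 DAP, while DET1 and DDB1, partners in repressing light responses, rose by at least 2.55-fold and by 0.93 ± 0.22 on the log2 scale.

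**Figure D3:**
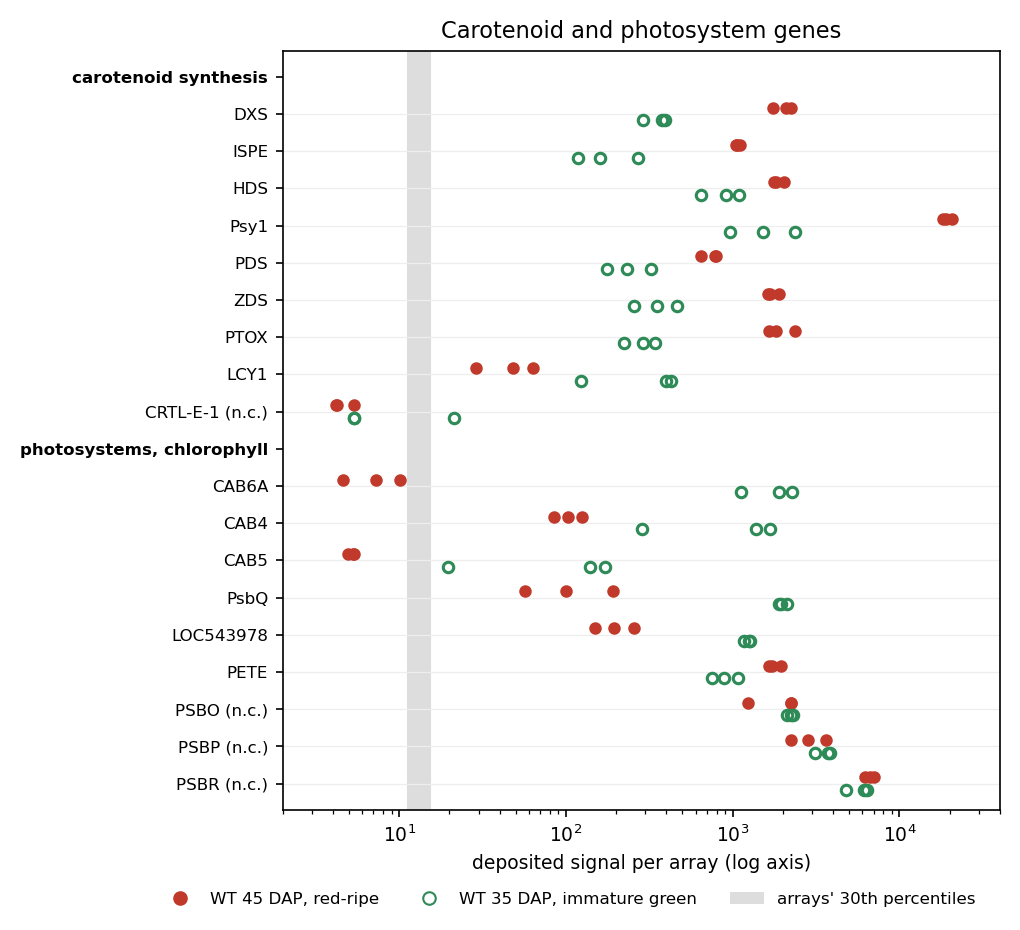
Deposited signal of each array on a log axis for carotenoid and photosystem genes, with filled points for the 3 arrays at 45 DAP and open points for the 3 at 35 DAP; n.c. marks genes not called. Psy1 lies between 18370 and 20610 on the ripe arrays, CAB6A lies below the grey band of 30th percentiles on every ripe array, and PSBO, PSBP and PSBR overlap between ages.

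Pectin enzymes held the largest increase among named genes. Of 13 tested genes 4 rose, 5 fell and 4 were not called, with a median log2 difference of -0.36. PG2, the polygalacturonase that cuts the pectin backbone, had signals of 22470, 20930 and 25060 at 45 DAP, against 6.33, 13.6 and 45.0 at 35 DAP. It was dim on 2 of the 3 green arrays, and the increase was at least 1034-fold (log2 difference 10.5 ± 1.196, adjusted p = 8.97e-06). GP1, the polygalacturonase beta-subunit, moved the opposite way, with 35.2, 44.6 and 153 at 45 DAP, against 12790, 11920 and 12990 at 35 DAP. The log2 difference was -7.66 ± 0.43 (adjusted p = 9.6e-09), and no ripe array came near a green one. Without replicate 3 at 45 DAP, the highest of the ripe arrays, the log2 difference was -8.31.

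Pectin methylesterases, which remove methyl groups before polygalacturonase acts, fell or were not called. PMEU1 was dim on all ripe arrays, against 1772, 2459 and 1296 at 35 DAP, a decrease of at least 155-fold. PE1, a fruit form, had 4422, 3265 and 9119 at 45 DAP, against 12380, 11580 and 12900 at 35 DAP, a log2 difference of -1.27 ± 0.25. PME2.1 was not called at -0.48 ± 0.35. The beta-galactosidase family divided: TBG3 (5.28 ± 0.95) and TBG4 (4.64 ± 0.49) rose, TBG6 fell (-4.16 ± 1.11), and TBG1, TBG2 and TBG5 were not called (-0.23 ± 0.37, 1.44 ± 0.62 and -0.36 ± 0.74). TBG2 was called higher without replicate 2 at 35 DAP (adjusted p = 0.042), and the difference of TBG3 was 5.93 without replicate 3 at 45 DAP. TBG4 had 357, 590 and 488 at 45 DAP, against 18.3, 24.0 and 15.2 at 35 DAP, and TBG6 had 99.1, 78.8 and 159 at 45 DAP, against 3454, 961 and 2132 at 35 DAP. The beta-xylosidase XYL1 rose by at least 9.2-fold, whereas LEXYL2 (LOC543515) fell by 2.00 ± 0.75. That decrease was lost in 5 of the 6 fits that left out 1 array (adjusted p of 0.0762 to 0.168), all but the one without replicate 3 at 45 DAP, whose signal of 464 stood against 73.6 and 80.5 and without which the difference was -2.87 on the log2 scale.

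Of 14 tested genes of hemicellulose and glucan enzymes, 5 fell, 2 rose and 7 were not called, with a median log2 difference of -1.56. Cel2, an endo-beta-glucanase of ripening and abscission, had 5697, 4460 and 3241 at 45 DAP, against 3.74, 3.76 and 10.4 at 35 DAP. The increase was at least 286-fold (log2 difference 9.69 ± 0.70). Man4, the endo-beta-mannanase of ripening fruit, had 412, 891 and 6856 at 45 DAP and was dim on all green arrays. Replicate 3 stood far above the other ripe arrays, and the increase of at least 89.4-fold became 39.8-fold without it and 162.5-fold without replicate 1 at 45 DAP. The called decreases were all of xyloglucan endotransglucosylase/hydrolases and one more glucanase, CEL8. XTH1 had 8.63, 3.82 and 7.26 at 45 DAP, against 360.5, 652.5 and 399 at 35 DAP, a decrease of at least 39.6-fold. XTH16 and XET2 fell by at least 31.5-fold and 16-fold. XTH7 fell by at least 13-fold, which was 6.86-fold without replicate 1 and 19.8-fold without replicate 2 at 35 DAP. CEL8 fell by 4.39 ± 1.07 on the log2 scale. XTH5 was not called at 1.00 ± 0.45 (adjusted p = 0.084).

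Expansins loosen walls without cutting them, and 9 of 12 were tested: 1 rose, 2 fell and 6 were not called. EXP1, the ripening expansin, had signals of 8808, 9557 and 5712 at 45 DAP, against 340, 313 and 1563 at 35 DAP. The groups did not overlap, and the log2 difference was 3.83 ± 1.23 (adjusted p = 0.0207), but the call was lost without replicate 1 or 2 at either age (0.0567 to 0.0701), and the difference was 4.59 without replicate 3 at 35 DAP. EXP5 had 7.24, 5.31 and 19.1 at 45 DAP, against 2101, 1460 and 1939 at 35 DAP, a decrease of at least 134-fold. EXPA3 had 175.5, 156 and 181 at 45 DAP, against 1350, 1865 and 1383 at 35 DAP, a log2 difference of -3.15 ± 0.31.

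**Figure D4:**
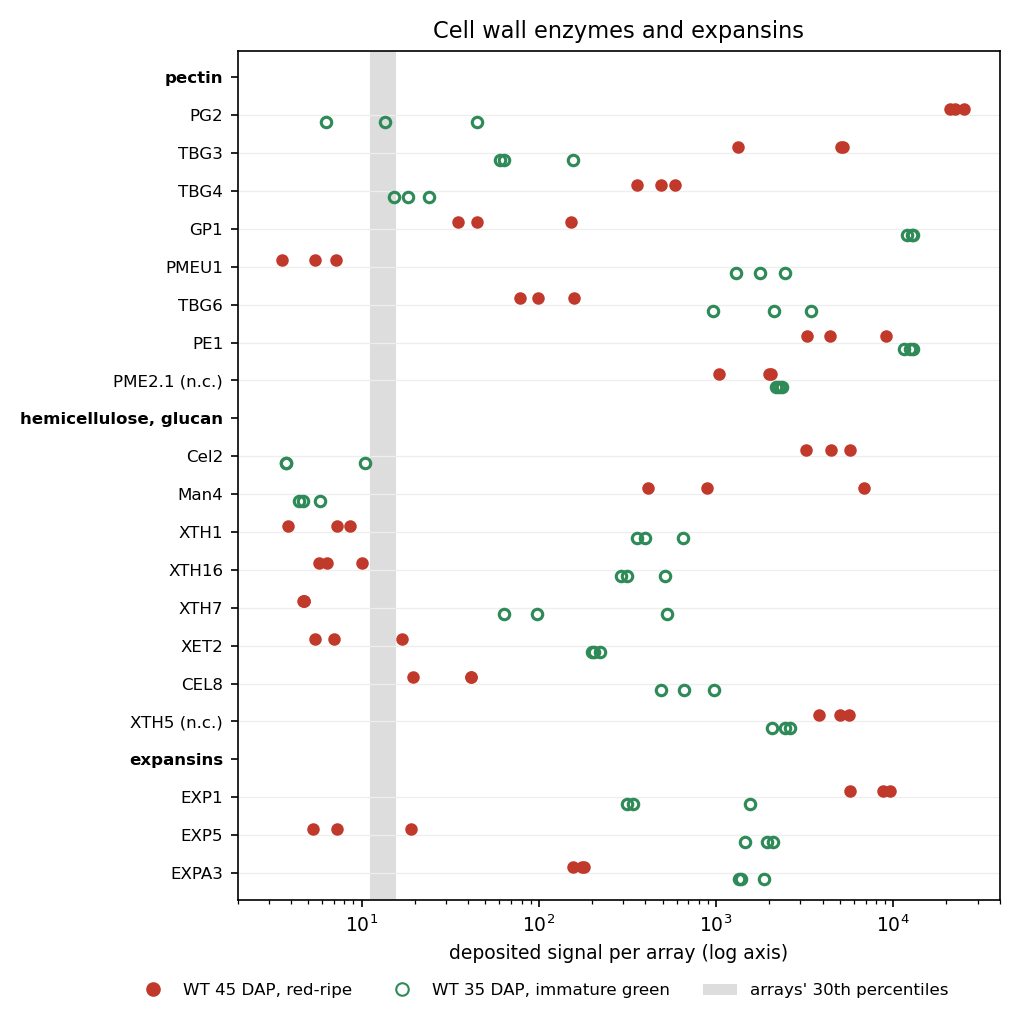
Deposited signal of each array on a log axis for cell wall enzymes and expansins, with filled points for the 3 arrays at 45 DAP and open points for the 3 at 35 DAP; n.c. marks genes not called, and the grey band spans the arrays' 30th percentiles. PG2, Cel2 and Man4 lie above 400 on every ripe array and below 50 on every green array, and PMEU1, XTH1, XTH16 and XTH7 lie below the band on every ripe array.

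Of 8 tested genes of aroma volatile synthesis, 5 rose, 1 fell and 2 were not called, with a median log2 difference of 1.02. AAT, an alcohol acyltransferase that makes esters, had signals of 9873, 7830 and 8988 at 45 DAP, against 94.0, 16.6 and 382 at 35 DAP, a log2 difference of 6.72 ± 1.32. The green arrays spread widely, and the difference was 5.55 without replicate 2 and 7.81 without replicate 3 at 35 DAP. The lipoxygenase loxC, which feeds the leaf-alcohol volatiles, had 1627, 3107 and 1957 at 45 DAP, against 25.0, 7.78 and 50.4 at 35 DAP, an increase of at least 79.9-fold. LOXB rose by 1.44 ± 0.39 on the log2 scale. ADH2, alcohol dehydrogenase, and HPL, hydroperoxide lyase, rose by 1.16 ± 0.34 and 0.89 ± 0.25, and both calls were lost without replicate 1 at 35 DAP (adjusted p of 0.0637 and 0.0514). The lipoxygenase LOX1.1 moved against loxC, with 164, 599 and 434 at 45 DAP, against 4580, 7289 and 5870 at 35 DAP (log2 difference -4.06 ± 0.48).

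Of 6 tested genes of jasmonate and oxylipin synthesis 3 fell, 1 rose and 2 were not called. OPR3, the reductase of jasmonate synthesis, had 32.9, 24.9 and 41.1 at 45 DAP, against 657, 570 and 677 at 35 DAP, a log2 difference of -4.29 ± 0.39. OPR1 was dim on all ripe arrays and fell by at least 21.5-fold. The allene oxide cyclase AOC fell by 1.23 ± 0.41, a call lost without replicate 1 or 2 of either age (adjusted p of 0.0502 to 0.086). The fatty acid desaturase Fad7 rose by 1.68 ± 0.47, a call lost without replicate 1 at 45 DAP (0.0532).

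Sugar and starch genes went both ways: 4 of 16 rose, 5 fell and 7 were not called. Over all tested named genes 22.4% rose and 26.0% fell, so these counts set the list little apart. The median log2 difference of the list was -0.91, and 2 of the 4 increases stayed called in all 6 fits that left out 1 array. AgpL1, the large subunit of ADP-glucose pyrophosphorylase that commits carbon to starch, had 9.62, 10.9 and 10.6 at 45 DAP, against 1092, 194 and 380 at 35 DAP. It was dim on all ripe arrays, and the decrease of at least 37.6-fold was 23.6-fold without replicate 1 at 35 DAP. The fruit sucrose synthase SUS1 (LOC543961) fell by at least 29.2-fold and the fructokinase FRK2 by 2.50 ± 0.23 on the log2 scale. Another sucrose synthase, sus3, rose by 1.75 ± 0.40 and another fructokinase, FRK3, by 1.06 ± 0.19. The vacuolar acid invertase AI was bright at both ages, with 19720, 19470 and 18250 at 45 DAP, against 9975, 7114 and 9641 at 35 DAP. Its arrays did not overlap, but it was not called (adjusted p = 0.122 in limma). The shared spread behind that test also holds rin arrays at 35 DAP, with AI signals of 1367, 2916 and 718.

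Of 7 tested genes of glutamate and GABA metabolism, 5 fell and 0 rose, with a median log2 difference of -2.19. At an unadjusted p under 0.05 in limma the counts were also 5 and 0, and GABA-TP1 was the member above 0, at 0.59 ± 0.47. The glutamate decarboxylase GAD3 (yfe37), which makes GABA, was dim on all ripe arrays, against 801, 3304 and 605 at 35 DAP. Replicate 2 at 35 DAP was the highest, and the decrease of at least 102-fold was 60.6-fold without it. GS2, the plastid glutamine synthetase, fell by at least 12.3-fold, and the GABA transaminase GABA-TP3 by 2.19 ± 0.29 on the log2 scale. GABA-TP2 had 7.25, 8.40 and 6.77 at 45 DAP, against 67.6, 934 and 42.8 at 35 DAP. Its decrease of at least 12.1-fold was 4.68-fold without replicate 2 and 21.9-fold without replicate 3 at 35 DAP.

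Histidine and arginine genes held 1 increase and 1 decrease among 7 tested. The histidine decarboxylase hdc had signals of 8248, 6841 and 7435 at 45 DAP, against 5.47, 5.62 and 5.89 at 35 DAP. It was dim on every green array and rose by at least 492-fold, the second largest increase among named genes after PG2, also with dim signals raised (log2 difference 10.4 ± 0.98 as deposited). The arginase ARG2 had 18.9, 21.6 and 21.9 at 45 DAP, against 386, 4437 and 515 at 35 DAP, a log2 difference of -5.53 ± 0.81. Replicate 2 was far above the other green arrays, and the difference was -4.43 without it and -6.19 without replicate 1 at 35 DAP. Its partner ARG1 was not called at -0.37 ± 0.29, and neither was the arginine decarboxylase ADC at -0.31 ± 0.41.

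Auxin-response genes had a median log2 difference of -2.83, or -2.12 with dim signals raised, with 5 of 8 lower and 0 higher, the same counts as at an unadjusted p under 0.05 in limma. IAA17 was dim on all ripe arrays, against 354, 316 and 171 at 35 DAP, a decrease of at least 23.3-fold. IAA27, a repressor of the same family, had 21.7, 11.2 and 26.7 at 45 DAP, against 259, 162 and 168 at 35 DAP, a decrease of at least 10.2-fold. The auxin response factor LeARF1 (LOC543517) fell by 3.76 ± 0.69. IAA3 lay higher without a call (1.86 ± 0.92, adjusted p = 0.116), and ARF3 differed by -0.02 ± 0.26. Of the 4 tested genes of gibberellin and brassinosteroid pathways 2 rose. CYP85A1, which makes active brassinosteroids, had 2684, 2485 and 2439 at 45 DAP, against 49.2, 96.6 and 89.4 at 35 DAP, a log2 difference of 5.07 ± 0.83, and the gibberellin-responsive type gene RSI-1 rose by 3.56 ± 0.73, which was 2.81 without replicate 1 and 4.30 without replicate 3 at 35 DAP.

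Of 5 tested genes of respiration and organic acids, 2 rose, 2 fell and 1 was not called. AOX1a, the alternative oxidase of mitochondria, had signals of 853, 1036 and 960 at 45 DAP, against 54.1, 42.8 and 61.6 at 35 DAP, a log2 difference of 4.18 ± 0.73. The mitochondrial uncoupling protein gene UCP rose by 2.20 ± 0.26, and the malate dehydrogenase gene mdh fell by 2.36 ± 0.22. The malic enzyme gene ME1 was not called at 0.21 ± 0.23, while ME2 was called lower, at -1.349 as deposited.

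Of 8 heat shock genes tested, 3 rose, 1 fell and 4 were not called, with a median log2 difference of 1.53. The gene vis1, whose small heat shock protein is known for its effect on juice viscosity, had 1965, 1838 and 5616 at 45 DAP and was dim on all green arrays, an increase of at least 179-fold. HSP21, the plastid form, had 2838, 3535 and 4018 at 45 DAP, against 23.5, 58.9 and 94.8 at 35 DAP, a log2 difference of 6.08 ± 1.06. HSP17-6 rose by 1.54 ± 0.43, a call lost without replicate 1 at 35 DAP (adjusted p = 0.0515), and the chaperone HSC80 fell by 0.99 ± 0.19.

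**Figure D5:**
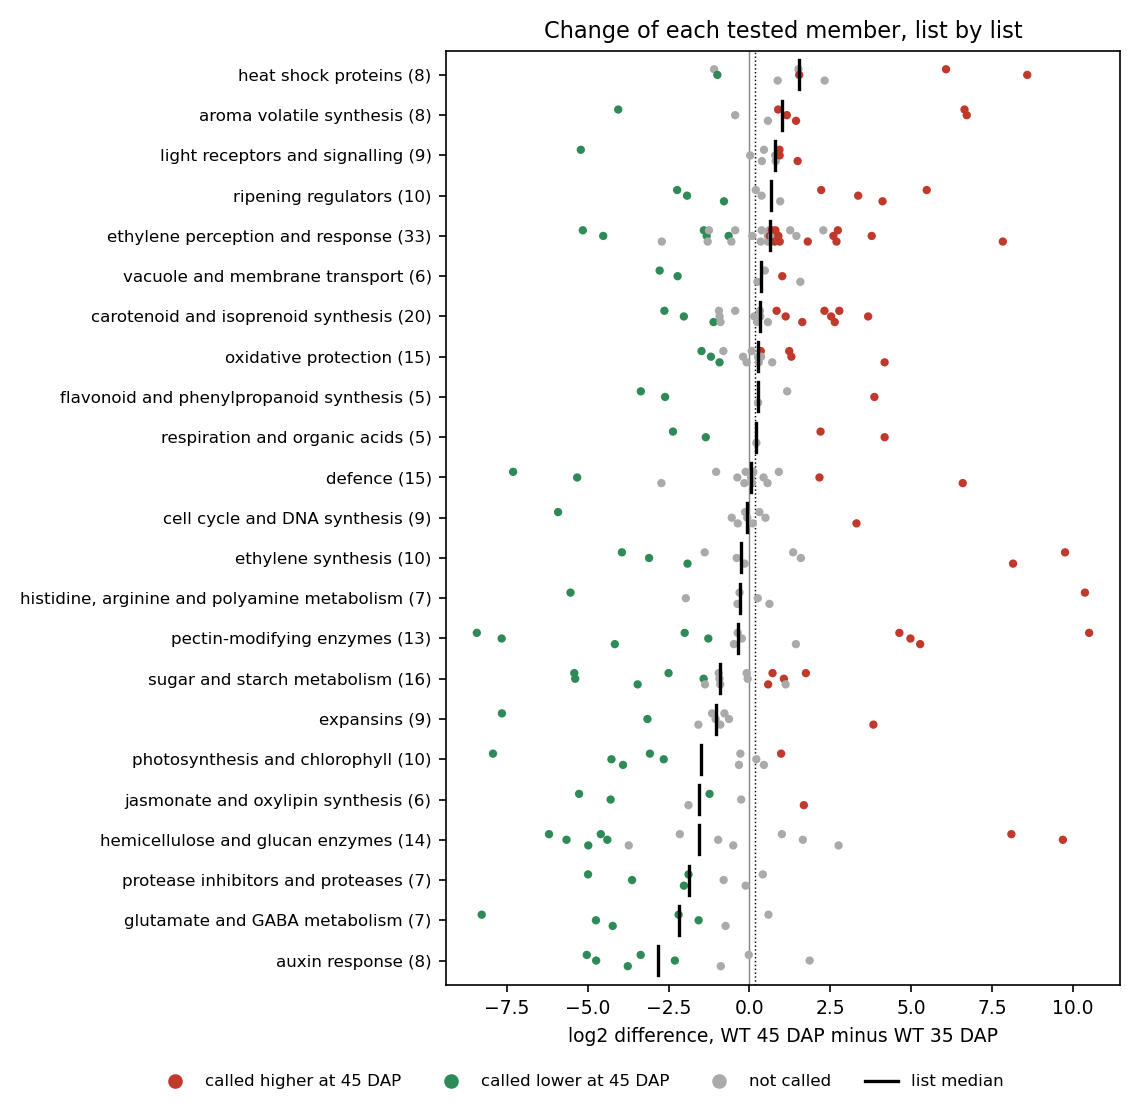
Log2 difference, 45 DAP minus 35 DAP, of each tested member of the lists with at least 5 tested genes, with black bars at list medians, a dotted line at the median of all tested probe sets (0.16) and the number of tested genes in parentheses. Heat shock and aroma genes have the highest medians (1.53 and 1.02), and glutamate and auxin genes the lowest (-2.19 and -2.83), with the order of that pair turned when dim signals are raised (-2.19 and -2.12).

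Of 15 tested defence genes 2 rose, 2 fell and 11 were not called. The increase of CHI14, dim on all green arrays, was lost with dim signals raised (adjusted p = 0.0851 in limma). It was also lost without replicate 1 at 45 DAP or replicate 1 or 2 at 35 DAP (0.05025 to 0.0738). NP24-I, an osmotin-like protein, had 6834, 11770 and 7927 at 45 DAP, against 8.27, 368 and 233 at 35 DAP. Replicate 1 at 35 DAP was far below the other green arrays, and the increase of at least 78.5-fold was 29.4-fold without it and 144-fold without replicate 2. TGAS118, a defensin-like gene, had 14.2, 10.1 and 14.4 at 45 DAP, against 1094, 4882 and 1523 at 35 DAP. Its decrease of at least 151-fold was 97.2-fold without replicate 2 at 35 DAP.

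Several of the largest decreases lay outside the lists. AGAL, alpha-galactosidase, was dim on all ripe arrays, against 1488, 1501 and 1163 at 35 DAP, a decrease of at least 120-fold. LOC543968, which the tables name no further, had 9.67, 5.29 and 18.3 at 45 DAP, against 1747, 1678 and 1688 at 35 DAP, a decrease of at least 128-fold. The dehydrin TAS14 fell by at least 53.3-fold. The probe set of the symbol gad2, whose RefSeq synonym GAME11 names a steroidal alkaloid gene, was dim on all ripe arrays, against 546, 11780 and 799 at 35 DAP. Its decrease of at least 150-fold was 267-fold without replicate 1 and 57.5-fold without replicate 2 at 35 DAP. Among probe sets with no symbol, the 2 with the largest log2 increases as deposited were dim on all green arrays and rose by at least 219-fold and 309-fold. The 2 with the largest decreases were dim on all ripe arrays and fell by at least 792-fold and 566-fold. The 792-fold bound was 1326-fold without replicate 1 and 492-fold without replicate 2 at 35 DAP.

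Whether these changes depended on the genotype was tested as the change with age in wild type minus that in rin, which differed in 1017 of 7720 probe sets (13.2%), 461 of them positive (5.97%) and 556 negative (7.2%), and in 110 of 635 named genes (17.3%). That count ranged from 640 to 1389 over fits that left out 1 array. RIN itself was dim on all 6 rin arrays at 45 and 35 DAP, and its course differed by 5.64 ± 0.52. Of the 24 named genes with the largest changes in wild type, 12 in each direction, 12 had a course that differed from rin by this test. With dim signals raised, 11 did. The 24 were chosen by their wild-type change, which is itself part of the tested difference. A high count was therefore partly fixed by that choice, and it does not test dependence on genotype. PG2 was not among the 12 whose course differed. In rin its signals were 5949, 3906 and 3695 at 45 DAP, against 9.19, 5.58 and 6.45 at 35 DAP, all 3 dim. The difference of the courses was 1.72 ± 1.39 on the log2 scale with dim signals raised (adjusted p = 0.449 in limma). On each ripe wild-type array PG2 gave the highest signal of all probe sets other than controls. Whether its signal was limited there was not tested.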

How the data were processed

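Total RNA was labelled and hybridised to Affymetrix tomato arrays, per the labels. The authors deposited a linear intensity for each probe set of each array, made with GCOS per the submitters' processing notes, and neither its version nor the scaling target is given in the sources used here. Of 10209 probe sets 108 AFFX controls were left out, and a probe set was tested if 3 or more of the 18 arrays had it above their 30th percentile, which left out 2381 as dim. Log2 intensity was fitted with limma 3.58.1 (R 4.3.3) with 6 group means over 18 arrays and eBayes with trend (residual df of 12), two-sided, with Benjamini-Hochberg adjustment over 7720 probe sets and calls at adjusted p under 0.05. The difference between the wild-type and rin courses was a contrast in the same fit. The number of arrays, 3 a group, limits the precision.

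Symbols came from the platform annotation, updated through RefSeq: 885 of 909 named probe sets matched, and 9192 had no symbol. The brightest probe set stood for a gene. Among called genes without overlap, the top 12 upward and the top 12 downward were named. Called members of gene lists were named mostly by smallest adjusted p, but some with a small one were left out. Members of the ripening, ethylene, carotenoid, pectin and other central lists were named too. Members and lists were chosen with earlier results of these data known, so list counts describe and do not test. A few members of other lists that were not called were named after their values were seen. Replicate numbers, which are also the plant numbers, were not taken to pair the ages, since the second title code contradicts them and the deviations of same-numbered arrays correlated at 0.01, -0.15 and -0.12. Alternatives changed the arrays in the fit, scaling, filter, pseudocount, variance model, call rule, replicate block, single arrays and, added after the data were seen, a floor on dim signals. The script was tested on simulated data.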

Additional observations from a re-analysis of the deposited data

Results flagged for a closer look

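The courses of wild type and rin from 35 to 45 DAP were compared gene by gene, as the log2 change in wild type minus that in rin, and the values here passed that test in limma (adjusted p under 0.05). All come from 1 model, and the same wild-type arrays chose the largest changes, so the direction of each value was partly fixed by that choice. Dim signals, below an array's 30th percentile, have no reliable log2 change, so each value from the signals as deposited is followed by the value with dim signals raised to that percentile wherever a wild-type or rin array was dim. Of the 12 largest increases, 4 exceeded the change in rin. The cellulase gene Cel2 did so by 10.6 (8.14 raised), with all 3 green wild-type and all 6 rin arrays dim, so that its change in rin was not measured. The histidine decarboxylase hdc did so by 8.53 (7.59 raised) and the ACC synthase ACS2 by 7.76 (7.05 raised), each dim on all green wild-type arrays and on 5 of 6 rin arrays. For ER1, dim on all green wild-type arrays and 1 rin array, the value was 6.01 (5.34 raised). RIN, whose gene carries the lesion of the mutant and which was dim on all 6 rin arrays, exceeded it by 5.64 (5.46 raised). Among the 12 largest decreases, 8 went further down in wild type: gad2 by a log2 difference of -7.07 (-5.86 raised), the chlorophyll-binding protein gene CAB6A by -7.02 (-6.29 raised), the polygalacturonase beta-subunit GP1 by -6.93 and the expansin EXP5 by -6.82 (-6.24 raised). The others were TUB, a tubulin, at -6.41 (-6.17 raised), LOC543968 at -5.90 (-5.45 raised), the defensin-like TGAS118 at -5.54 (-5.48 raised) and the alpha-galactosidase AGAL at -5.35. With dim signals raised AGAL was at -4.05 and no longer passed (adjusted p = 0.0888), while the others still did. For GP1 the rin signals were 6088, 10800 and 10890 at 45 DAP, against 16070, 13800 and 14560 at 35 DAP. Replicate 1 at 45 DAP stood apart from the other 2 rin arrays of that age in most of these genes. It had the lowest signals of GP1, EXP5, CAB6A, gad2, TUB, LOC543968 and AGAL. Its EXP5 signal was 475 against 1733 and 1786, and its CAB6A signal was 77.1 against 1324 and 1357. It had the highest signals of ER1, hdc and ACS2, and was the rin array not dim for hdc (213) and ACS2 (110). Of the 8 decreases, TGAS118 was the exception, at 1064 against 631 and 571. A fit without this array was run, but its values for these genes are not given here.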

How the results depend on the processing

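The number of probe sets called between 45 and 35 DAP in wild type stayed within 1.5 times the reported 3285 under every alternative run, from 2495 (also requiring a 2-fold change) to 3634 (only the 6 arrays compared), and from 2617 to 3026 when any 1 of the 6 arrays was left out (1396 to 1663 higher and 1221 to 1363 lower). With the replicate block 3233 were called, and 94.6% of the reported calls were shared, although the numbers do not pair the samples. The share of calls that were higher was 55.5%, and 57.8% after quantile normalization, 58.8% after median centring and 57.2% with a pseudocount of 32. The median difference over all probe sets was 0.16, 0.21 after quantile normalization and 0.22 after centring. The count of courses that differed between genotypes was less stable: 906 to 1126 under the other settings, but 640 to 1389 in total, 249 to 663 positive and 391 to 726 negative when 1 of 12 arrays was left out, for which the cause was not tested. An alternative chosen after seeing the data raised dim signals to their array's 30th percentile: 3242 probe sets were then called, with 96.0% of the reported calls shared, and 1006 courses differed. Of 167 genes examined singly, 128 were called, 100 of them under every alternative and 28 not under at least 1 (counting the 2-fold rule, which by construction drops small changes), and 0 changed direction in limma. Dim signals limit the folds: below the 30th percentile only a bound could be given.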

Other observations

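Several groups with fewer called genes complete the comparison. TUB, which encodes a tubulin, had signals of 8.82, 9.01 and 71.8 at 45 DAP, against 2468, 2290 and 1935 at 35 DAP, a decrease of at least 106-fold that was 196-fold without replicate 3 at 45 DAP. Actin (ACT) differed little, at -0.48 ± 0.14 on the log2 scale, a call lost without replicate 3 at 45 DAP (adjusted p = 0.055), and profilin was not called at 0.07 ± 0.18. Of 9 tested genes of the cell cycle, 1 rose, 1 fell and 7 were not called. The cyclin-dependent kinase CDKA1 was dim on all ripe arrays, against 565, 400 and 399 at 35 DAP, a decrease of at least 39-fold. The kinase inhibitor krp2 had 69.9, 90.6 and 73.5 at 45 DAP and was dim on all green arrays, an increase of at least 5.09-fold. The S-phase marker PCNA was not called at -0.13 ± 0.52, and its arrays overlapped.

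The glycosylphosphatidylinositol-anchored lipid transfer protein gene ltpg1 had signals of 28.2, 62.9 and 2113 at 45 DAP, against 7560, 11450 and 9380 at 35 DAP. Replicate 3 at 45 DAP stood far above the other ripe arrays, and the log2 difference of -5.91 ± 1.01 was -7.79 without it, -4.68 without replicate 1 and -5.26 without replicate 2 of that age. Of 5 tested flavonoid and phenylpropanoid genes 1 rose and 2 fell. CHS1, chalcone synthase, had 1233, 1900 and 1267 at 45 DAP, against 45.2, 253 and 84.6 at 35 DAP. Its log2 difference of 3.86 ± 1.40 (adjusted p = 0.0372 in limma) was not called in 5 of the 6 fits that left out 1 array, all but the one without replicate 2 at 35 DAP, where it was 4.54 (0.0689 to 0.124 in the other fits). CHS2, a second chalcone synthase, was bright at both ages and not called at 0.27 ± 0.83. The MYB genes THM27 and THM6 held 1 and 2 dim ripe arrays and fell by at least 9.72-fold and 4.96-fold.

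Of 15 genes of oxidative protection 4 rose, 3 fell and 8 were not called. The ascorbate-recycling pair DHAR2 and DHAR1 moved in opposite directions. DHAR2 had 878.5, 766 and 813 at 45 DAP, against 284, 358 and 363 at 35 DAP, and DHAR1 had 1276, 1095 and 1777 against 3790, 2802 and 2772. GLDH, the last enzyme of ascorbate synthesis, fell by 1.48 ± 0.26 on the log2 scale and the ascorbate peroxidase APX2 by 0.92 ± 0.21. Of 6 tested transport genes 1 rose, 2 fell and 3 were not called. The plasma-membrane proton pump LHA1 fell by 2.22 ± 0.36. The sodium/proton exchangers went both ways: NHX2 rose by 1.01 ± 0.27, and NHX1 had a log2 difference of -2.775 as deposited (adjusted p = 0.000759 in limma). Of 7 tested proteases and protease inhibitors 4 fell and 0 rose, the same counts as at an unadjusted p under 0.05 in limma. Of the 4, 2 stayed called in all 6 fits that left out 1 array. The median log2 difference of the list was -1.88, or -0.49 with dim signals raised. The subtilase sbt3, dim on 2 ripe arrays, fell by at least 23.1-fold.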
